A study of Homo sapiens with 6 samples.

Results

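The mRNAs of 8 amino acid transporters were compared between LNCaP cells with and without knockdown of PRMT5, an enzyme that dimethylates arginines of histones, splicing factors and other proteins. The genes were chosen by name as carriers of neutral and cationic amino acids: SLC1A5, SLC1A4, SLC7A5, SLC7A1, SLC7A6, SLC38A1, SLC38A2 and SLC43A1. All 8 were among the 12768 genes of the count table, and each had reads in all 6 RNA sequencing libraries. LNCaP is an androgen-responsive human prostate cancer line, and cells of every culture stably carried a plasmid whose short hairpin RNA, switched on by doxycycline, targets PRMT5. All were kept in RPMI 1640 with 10% FBS. The 3 knockdown libraries came from cells given doxycycline for 4 days, and the 3 without knockdown from cells grown for the same 4 days without it. The series calls the libraries of a group biological replicates and does not state further whether each was a separate culture. Culture here and below stands for the cells of a single library. No doxycycline-treated culture lacking the hairpin was analysed here, so effects of doxycycline and of knockdown cannot be told apart. The labels do not say whether the line was a single clone.

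These carriers set which amino acids a cell can take up and trade. Sodium-coupled carriers of the SLC38 family load the cell with small neutral amino acids such as glutamine and alanine, and carriers of the SLC1, SLC7 and SLC43 families swap or pass on others, leucine and arginine among them. Several of the genes are known targets of ATF4, the transcription factor of the amino acid response, and in prostate cancer cells leucine uptake is known to run through SLC43A1 and SLC7A5.

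The libraries held 7911853 to 15831938 counted reads, so 1 read was worth 0.064 to 0.13 CPM (the depth-scaled count, with factors from the trimmed mean of M values, TMM). PRMT5 stood at 82.8 to 91.96 CPM without knockdown and at 9.69 to 10.8 CPM with it, on the side each label gives. An antisense gene, PRMT5-AS1, overlaps it, and counting by strand is not stated. All 9 luminal prostate markers examined had rows in the table, with a summed level of 4578 to 4765 CPM without knockdown and 4363 to 4480 CPM with it. None of 3 basal markers (KRT5, KRT14 and TP63) had one, nor had the leukocyte markers PTPRC and CD3E, the endothelial marker PECAM1 or the fibroblast marker COL1A2. The other 3 of 4 fibroblast markers summed to 38.5 to 45.5 CPM and 39.5 to 42.2 CPM, 1 of 3 leukocyte markers (CD68) stood at 1.38 to 1.63 and 1.42 to 1.67 CPM, and 1 of 2 endothelial markers (VWF) at 13.8 to 17.5 and 10.9 to 17.3 CPM. The part of these levels in the results below was not tested. Replicate 2 stood apart in both groups. Within the cultures without knockdown, all 8 transporters were lowest in replicate 2, as were 5463 of the 12768 genes, and within the knockdown cultures 5 of the 8 were, as were 5017 of the 12768 genes. Values are therefore given both for edgeR fitted on group alone and, where the call differs, with replicate number added as a block.

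Judged per length, SLC38A2 was by far the most abundant of the 8 mRNAs and SLC7A5 the least. Levels between genes are given as RPKM, the scaled CPM divided by the gene length in kilobases given in the table. Without knockdown SLC38A2 stood at 146 ± 8.44 RPKM (SD, n = 3 here and below), 4.51 times SLC38A1 at 32.4 ± 3.15 RPKM. The cationic carrier SLC7A1 (10.8 ± 2.52 RPKM), SLC7A6 (9.04 ± 1.45 RPKM), SLC1A5 (7.85 ± 2.22 RPKM) and SLC43A1 (5.23 ± 1.31 RPKM) followed. Within each of the 3 libraries these 4 stood in that same order. Across libraries neighbours in the run overlapped, all 4 being lowest in replicate 2, while SLC7A1 and SLC7A6 did not overlap SLC43A1. SLC1A4 at 2.13 ± 0.154 RPKM and SLC7A5 at 0.638 ± 0.124 RPKM stood below all of them without overlap. For comparison, the median gene of the table had 11.1 RPKM, and SLC3A2, the heavy chain that SLC7A5 and SLC7A6 need to reach the surface, had 43.7 ± 4.88 RPKM. SLC43A1 had 8.21 times the RPKM of SLC7A5 without knockdown and 10.4 times with it. After knockdown SLC7A6 (10.3 ± 2.68 RPKM) and SLC7A1 (8.92 ± 1.23 RPKM) changed places in the order of means, with overlapping libraries, and in replicate 2 SLC7A1 was still the higher. SLC1A5, at 3.87 ± 0.759 RPKM with knockdown, was below SLC7A1 within every library of both groups.

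**Figure D1:**
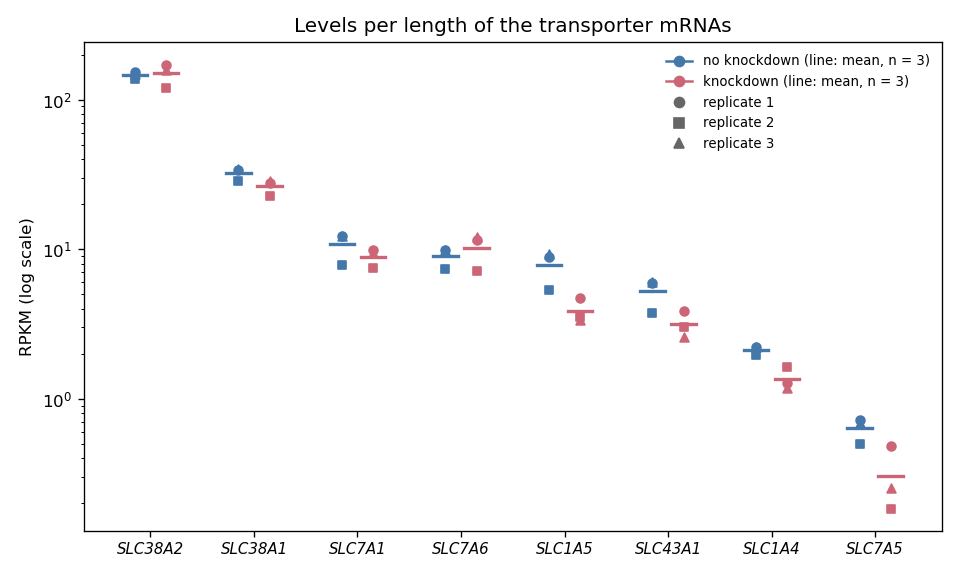
Level per length (RPKM, log axis) of each transporter mRNA in the 3 cultures without knockdown (blue) and the 3 with it (red), with a line at each group mean and symbols for the replicate number. SLC38A2 lies above all others in both groups and SLC7A5 below all others, at 0.638 RPKM without knockdown and 0.307 RPKM with it.

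The summed level of the 8 mRNAs was 214 ± 18.99 RPKM without knockdown and 204 ± 34.7 RPKM with it, a difference within the spread of the libraries. SLC38A2 made up 66.3 to 71.1% of that sum without knockdown and 72.2 to 74.3% with it. SLC38A1 made up 14.9 to 15.5% and then 11.96 to 13.8%, and SLC1A5 2.76 to 4.20% and then 1.55 to 2.14%. These 3 shares did not overlap between the groups. Those of SLC7A5 (0.258 to 0.320% and then 0.112 to 0.208%) and SLC43A1 (1.94 to 2.71% and then 1.21 to 1.85%) did not either. The shares of SLC1A4, SLC7A1 and SLC7A6 overlapped. A share also moves when other genes of the sum move, and the mean level of SLC38A2 itself with knockdown was 102% of that without. Such shares were not computed for other sets of genes.

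After knockdown SLC1A5, SLC7A5, SLC43A1 and SLC1A4 had between 48.1 and 64.2% of their level without knockdown, SLC38A1 and SLC7A1 had 81.1 and 82.5%, and SLC7A6 and SLC38A2 had 113 and 102%. By edgeR's quasi-likelihood test on group alone, none of the 8 passed a Benjamini-Hochberg adjusted p of 0.05, where 1.48% of all genes were called, 1.14% lower and 0.337% higher. At an unadjusted p under 0.05, 5 of the 8 were lower, where 8.84% of all genes were. DESeq2 called SLC1A5 alone, lower, where 1.66% of all genes were lower and 0.713% higher. Limma-voom called none of the 8, where 1.1% of all genes were lower and 0.329% higher. With the replicate number as a block, 5 of the 8 were called lower (SLC1A5, SLC38A1, SLC43A1, SLC1A4 and SLC7A5) and none higher, where 5.1% of all genes were lower and 3.21% higher. The groups did not overlap for 4 of the 8, all lower with knockdown, as for 11.6% of all genes, and none was higher without overlap, as 8.22% of all genes were. In 6 of the 8 the knockdown library was lower in each of the 3 numbered pairs, as for 22.8% of all genes, and in none was it higher in all 3, as for 20.9% of all genes. The median log2 fold change of the 8 was -0.48, against -0.0021 for all genes, and 4 of the 8 lay below -0.5, as did 3.34% of all genes. In bulk RNA, fewer cells that express a gene and less RNA per cell cannot be told apart.

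**Figure D2:**
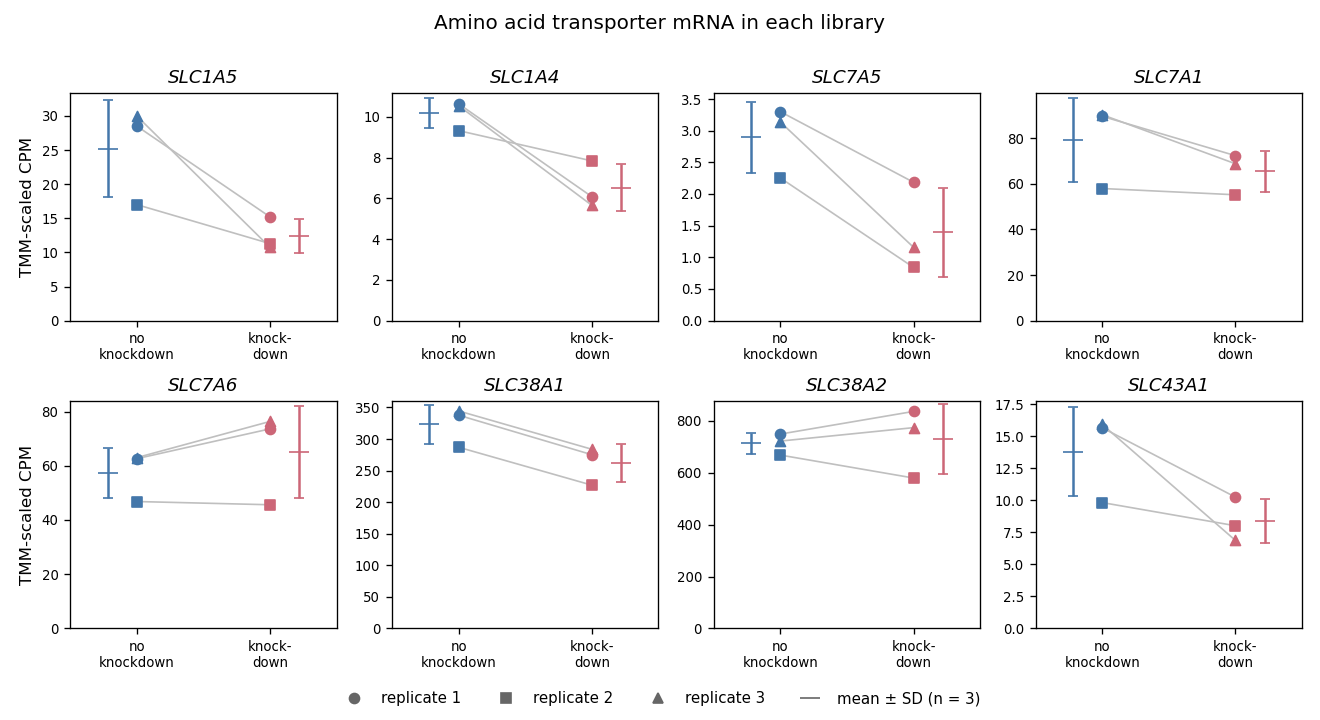
TMM-scaled CPM of each transporter in every library, with symbols for the replicate number, grey lines joining same-numbered libraries, and bars for the mean ± SD of 3 libraries. SLC1A5, SLC1A4, SLC7A5 and SLC38A1 show no overlap between the groups, and replicate 2 (squares) is the lowest of the cultures without knockdown in all 8 panels.

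SLC1A5 encodes ASCT2, a sodium-dependent exchanger of neutral amino acids known for bringing in glutamine, and its gene occupies 46774883 to 46788594 of chromosome 19 on the minus strand (positions of genes are those of GENCODE 29, GRCh38). It stood at 28.5, 17.0 and 30.0 CPM in cultures 1, 2 and 3 without knockdown and at 15.2, 11.3 and 10.7 CPM in the knockdown cultures. The groups did not overlap, although replicate 2 without knockdown came close to knockdown replicate 1. The means were 25.2 ± 7.11 and 12.4 ± 2.43 CPM, a log2 fold change of -1.03 (SE 0.22, edgeR adjusted p = 0.064). With the block the value was -1.02 (SE 0.14, adjusted p = 6.24e-04), and DESeq2 without a block gave an adjusted p of 2.51e-04. Without no-knockdown replicate 2 the log2 fold change was -1.25 and the adjusted p 0.0057, in a fit that called 1.59% of all genes lower and 0.517% higher. With any other single library left out it ran from -0.89 to -1.18, with an adjusted p of 0.071 to 0.30. An antisense transcript, AC008622.2, overlaps the gene, and 25.8% of the 50-base stretches of its longest coding transcript also occur there on either strand, so its reads may be mixed.

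SLC1A4 encodes ASCT1, the close relative of ASCT2 that exchanges alanine, serine, cysteine and threonine (chromosome 2, 64988477 to 65023865, plus strand). Its values were 10.6, 9.32 and 10.5 CPM without knockdown and 6.08, 7.83 and 5.65 CPM with it. All 3 knockdown libraries lay below all 3 others, and the smallest step was that of replicate 2. Its log2 fold change came to -0.65 (SE 0.17, edgeR adjusted p = 0.097, and 0.020 with the block). Without knockdown replicate 2 it was -0.80, with an adjusted p of 0.032, in a fit that called 2.08% of all genes lower and 1.4% higher. With any other single library left out it ran from -0.55 to -0.71, with an adjusted p of 0.091 to 0.41.

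SLC7A5 encodes LAT1, the light chain that with SLC3A2 trades intracellular glutamine for leucine and other large neutral amino acids (chromosome 16, 87830023 to 87869488, minus strand). It rested on few reads, 36, 22 and 25 without knockdown and 23, 9 and 18 with it. These amounted to 3.30, 2.25 and 3.14 CPM without knockdown and 2.18, 0.839 and 1.16 CPM with it. The groups did not overlap, but knockdown replicate 1 lay just under replicate 2 without knockdown. The 9 reads of knockdown replicate 2 have an exact Poisson 95% interval of 4.12 to 17.1 reads, or 0.384 to 1.59 CPM, which covers counting error only. Its log2 fold change came to -1.07 (SE 0.34, edgeR adjusted p = 0.19), and with the block it was again -1.07 (SE 0.28, adjusted p = 0.028). Without the block and with any single library left out, it ran from -0.86 to -1.49, with an edgeR adjusted p of 0.14 to 0.51. The pseudogenes SLC7A5P1 and SLC7A5P2, carry copies of part of the gene, and 5.61% of the 50-base stretches of its longest coding transcript occur in transcripts of other genes on either strand. The split of reads between them is therefore uncertain. SLC7A5P2, also in the table, had 3.42 ± 1.02 CPM without knockdown and 3.84 ± 0.555 CPM with it (edgeR adjusted p = 0.80).

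SLC43A1 encodes LAT3, a sodium-independent carrier of leucine and other large neutral amino acids first described as a gene raised in prostate cancer (chromosome 11, 57484534 to 57515786, minus strand). It had 15.7, 9.83 and 15.9 CPM without knockdown and 10.3, 8.02 and 6.88 CPM with it. Knockdown replicate 1 lay above replicate 2 without knockdown, so the groups overlapped, yet each knockdown library was below its same-numbered partner. Its log2 fold change came to -0.73 (SE 0.21, edgeR adjusted p = 0.15, and 0.012 with the block). Without no-knockdown replicate 2 it was -0.93, with an adjusted p of 0.033, and with any other single library left out the adjusted p was 0.15 to 0.47.

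The 2 carriers of the SLC38 family differed from each other. SLC38A1 encodes SNAT1 (chromosome 12, 46183063 to 46270017, minus strand), which imports glutamine together with sodium. It stood at 338, 287 and 344 CPM without knockdown and at 275, 227 and 284 CPM with it. All knockdown libraries were below all others, the highest of them only just below replicate 2 without knockdown. Its log2 fold change came to -0.30 (SE 0.10, edgeR adjusted p = 0.22). With the block it was the same size with a smaller error (-0.30, SE 0.058, adjusted p = 0.0044), since the 3 paired differences of -0.30, -0.34 and -0.28 on the log2 scale lay close together. Without the block and with any single library left out, SLC38A1 ran from -0.21 to -0.38, with an edgeR adjusted p of 0.090 to 0.52. SLC38A2 encodes SNAT2, the sodium-coupled carrier known to rise when amino acids run short, and lies nearby on the same strand of chromosome 12 (46358189 to 46372867). It had 749, 668 and 722 CPM without knockdown and 837, 580.0 and 774 CPM with it. Knockdown replicates 1 and 3 were the highest of the 6 libraries and knockdown replicate 2 the lowest. Neither fit called it, at a log2 fold change of 0.03 (SE 0.12, edgeR adjusted p = 0.93) and of 0.02 with the block (SE 0.073, adjusted p = 0.91). Its direction turned when any of 3 libraries was left out, to -0.01 without no-knockdown replicate 2, to -0.06 without the first knockdown replicate and to -0.01 without the third.

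SLC7A1 encodes CAT-1, the main uptake route for arginine and lysine in most cells (chromosome 13, 29509410 to 29595688, minus strand). Its values were 89.7, 58.0 and 90.3 CPM without knockdown and 72.4, 55.2 and 68.8 CPM with it. The groups overlapped because replicate 2 without knockdown lay below knockdown replicates 1 and 3, while within each number the knockdown library was the lower. Its log2 fold change came to -0.27 (SE 0.18, edgeR adjusted p = 0.54), and with the block -0.26 (SE 0.078, adjusted p = 0.051). Leaving out 1 library moved it to -0.46 without no-knockdown replicate 2 (adjusted p = 0.074), to -0.17 when replicate 1 or 3 of the cultures without knockdown or the second knockdown replicate was missing, and to between -0.31 and -0.34 otherwise. Of the fits run, it passed only in those without both replicates 2 (without a block -0.35, edgeR adjusted p = 5.92e-04). Of these, the fit without a block was chosen after the data were seen and called 9.12% of all genes lower.

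SLC7A6 encodes y+LAT2, which with SLC3A2 sends arginine out in exchange for glutamine and sodium (chromosome 16, 68264516 to 68301823, plus strand). It had 62.6, 46.8 and 63.0 CPM without knockdown and 73.6, 45.6 and 76.3 CPM with it. Replicates 1 and 3 were higher with knockdown and replicate 2 was not. Neither fit called it (log2 fold change 0.19, SE 0.20, edgeR adjusted p = 0.73, and 0.17 with adjusted p = 0.24 with the block). Leaving out 1 library moved it to 0.05 without knockdown replicate 3, 0.06 without no-knockdown replicate 2, 0.11 without knockdown replicate 1 and 0.39 without knockdown replicate 2, and edgeR called none of these (adjusted p = 0.13 to 0.97). Without both replicates 2 and without a block, it was higher by 0.26 on the log2 scale (edgeR adjusted p = 0.011). That fit, chosen after the data were seen, called 7.64% of all genes higher. The gene SLC7A6OS runs on the opposite strand, and 53.1% of the 50-base stretches of the longest SLC7A6 coding transcript also occur in its transcripts on either strand. The strand setting of the counting is unknown here, and reads of the pair may be mixed. SLC7A6OS itself had 13.5 ± 1.51 CPM without knockdown and 13.3 ± 0.466 CPM with it.

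Ratios within a library compare family members free of scaling. The log2 ratio of SLC38A1 to SLC38A2 (in CPM) was -1.15 ± 0.08 without knockdown and -1.47 ± 0.13 with it. That of SLC7A5 to SLC7A6 was -4.32 ± 0.07 and -5.63 ± 0.50, and that of SLC7A6 to SLC7A1 -0.45 ± 0.12 and -0.03 ± 0.22. None of these 3 ratios overlapped between the groups. In an exact two-sided permutation test each had p = 0.1, the smallest that 3 against 3 libraries allow, and 0.17 when adjusted over the 5 ratios computed. The log2 ratio of SLC1A5 to SLC1A4 (1.27 ± 0.35 and 0.92 ± 0.40) and of SLC43A1 to SLC7A5 (2.24 ± 0.11 and 2.69 ± 0.52) overlapped (exact permutation p = 0.3 for each, 0.3 adjusted). Ratios of other gene pairs were not computed, so how often they overlap is not known. Those with SLC7A5 rest on few reads, 9 in its lowest library, and reads of SLC7A6 may be mixed with those of SLC7A6OS.

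**Figure D3:**
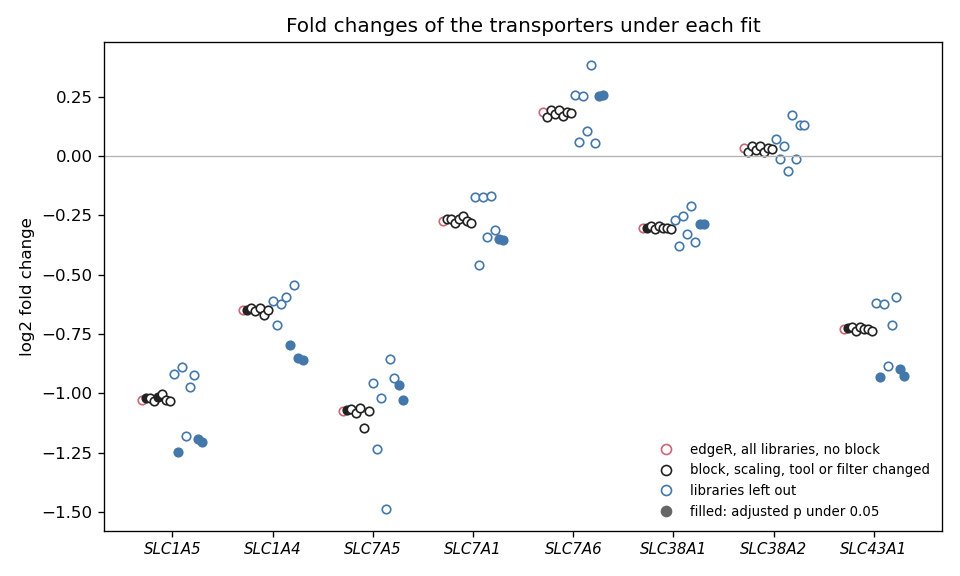
Log2 fold change (knockdown over no knockdown) of each transporter under each fit: the edgeR fit of all libraries without a block (red), fits with another block, scaling, tool or filter (black) and fits with libraries left out (blue), filled where the adjusted p was under 0.05. SLC1A5, SLC1A4, SLC7A5, SLC7A1, SLC38A1 and SLC43A1 stayed below 0 in every fit shown, and SLC38A2 fell on both sides of it.

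Leaving out replicate 2 of both groups, a fit chosen after the data were seen, called 6 of the 8 lower and SLC7A6 higher. In that fit 9.12% of all genes were lower and 7.64% higher. With the block added, the same numbers of transporters were called, beside 9.94% and 8.79% of all genes. The authors' deposited table lists 3 of the 8 under a false discovery rate of 0.05, all lower, beside 2.68% of all genes. These are SLC1A5 (log2 fold change -1.02, rate 6.01e-04), SLC1A4 (-0.65, 0.016) and SLC43A1 (-0.73, 0.044) in the authors' deposited table.

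Among other amino acid carriers the picture was mixed. Of 56 genes listed by family as carriers of amino acids at the plasma membrane, lysosome, synapse or mitochondrion, or as their heavy chains, 26 were in the table. Their median log2 fold change was 0.03, and 11 lay below 0. In all, 2 were called lower without the block and none higher (1.14% and 0.337% of all genes), and with it 4 were lower and 1 higher (5.1% and 3.21%). SLC7A11, which imports cystine in exchange for glutamate, had 212 ± 33.7 CPM without knockdown and 70.9 ± 14.4 CPM with it (log2 fold change -1.57, edgeR adjusted p = 0.0045). SLC1A1, a glutamate, aspartate and cysteine importer, fell from 25.0 ± 1.14 to 16.6 ± 1.77 CPM (-0.60, edgeR adjusted p = 0.030). This call was lost when any of the replicates 1 or 3 was left out, the adjusted p then being 0.13 to 0.16. With the block SLC7A2, a second carrier of arginine and lysine, and the glycine carrier SLC6A9 joined them at -0.57 (edgeR adjusted p = 3.41e-04) and -0.66 (0.020). Without a block SLC7A2 passed in DESeq2 (adjusted p = 0.022) but not in edgeR (0.15) or limma-voom (0.14). The authors' deposited table lists it at a false discovery rate of 0.024. Without the block, SLC6A9 passed when no-knockdown replicate 2 was left out (-0.94, edgeR adjusted p = 0.018), and in no other fit lacking 1 library. SLC25A29, a mitochondrial carrier of basic amino acids, was higher by 0.28 on the log2 scale (edgeR adjusted p = 0.019 with the block, 0.097 without).

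SLC3A2, the shared heavy chain, had 137, 111 and 133 CPM without knockdown and 107, 106 and 109 CPM with it. The knockdown libraries lay close together and below all others. Its log2 fold change came to -0.24 (SE 0.088, edgeR adjusted p = 0.26, and 0.056 with the block). Without no-knockdown replicate 2 it was -0.33, with an adjusted p of 0.033, and with any other single library left out the adjusted p was 0.24 to 0.67.

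**Figure D4:**
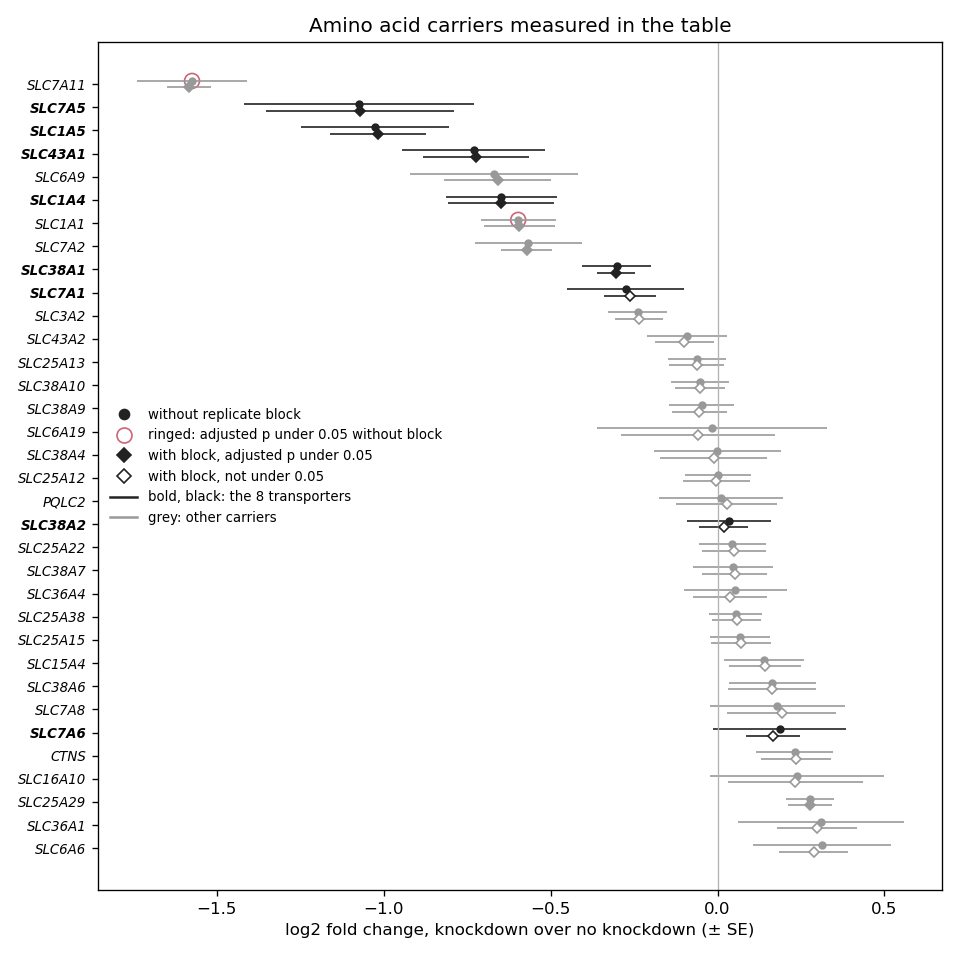
Log2 fold change ± SE of the 8 transporters (bold, black) and the 26 other carriers in the table (grey), without the replicate block (circles, ringed where the adjusted p was under 0.05) and with it (diamonds, filled where the adjusted p was under 0.05). SLC7A11 has the most negative value, -1.57, followed by SLC7A5 and SLC1A5, and only SLC25A29 is called higher, with the block.

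For each transporter the gene with the most similar profile was found among 11467 genes whose average log2 CPM was 2 or more (11468 for SLC7A5, which lies below that level itself). Likeness was the root mean square difference of log2 CPM over the 6 libraries, each gene centred on its own mean. ADM2, a secreted peptide of the calcitonin family, was closest to both SLC1A5 (0.11) and SLC43A1 (0.075), where the median gene differed by 0.60 and 0.47. These 2 transporters were also among each other's nearest, SLC43A1 being the 3rd nearest gene to SLC1A5 and SLC1A5 the 5th nearest to SLC43A1. SLC1A5 was likewise the 3rd nearest gene to SLC7A5 (0.30). SLC7A5 itself, being below the level set, could not appear as a neighbour of any other gene. The nearest gene was HLA-B for SLC1A4 (0.035), KIAA1467 for SLC7A5 (0.25), FYCO1 for SLC7A1 (0.053), PLS1 for SLC7A6 (0.045), CASK for SLC38A1 (0.024) and FBXO41 for SLC38A2 (0.028). These matches over 6 libraries are descriptions only, with no test.

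Promoter sequences were searched because 5 of the transporters were lower together with the block. RefSeq (GRCh38.p14) gives 13 windows of 300 bases, from 250 before to 50 after a transcript start, for the 8 genes. TGATGNAA, a core of the element bound by ATF4 with C/EBP partners, was searched on both strands and found in 4 of the 13 windows, 1 each of SLC1A5, SLC1A4, SLC7A1 and SLC38A1. It was found in 1.91% of 13785 such windows of genes in the table. The 8 were chosen by name and several are known ATF4 targets, so they were not picked without regard to this motif. Any link of the matches to the knockdown was not tested. Of the 5 lower with the block, SLC7A5 and SLC43A1 had no window with TGATGNAA, and SLC7A1 is not one of the 5. A window of SLC3A2 also held it, and the remaining other carriers were not looked at singly. CACGTG, the E box bound by MYC and related factors, which reads the same on both strands, was found in 3 of the 13, 1 each of SLC7A5, SLC43A1 and SLC1A5, and in 9.38% of the 13785. The motifs do not overlap each other in these windows. A match is a description of the letters and not a shown binding site, and windows without one say nothing about sites elsewhere in the gene. The 6 windows printed here are examples with a match, written 5′ to 3′ on the strand of the gene, with the motif in capitals. In SLC1A5 (chr19:46784765-46785064, minus strand, an internal start) and SLC1A4 (chr2:64989149-64989448, plus strand) TGATGNAA starts 97 and 7 bases before the transcript start, in SLC1A4 as its reverse complement. The SLC1A4 match reaches the start with its last base. In SLC7A1 (chr13:29595639-29595938, minus strand) TGATGNAA follows the start and in SLC38A1 (chr12:46266467-46266766, minus strand) it spans the start. The SLC1A4 and SLC38A1 starts are internal too. In SLC1A5, SLC1A4 and SLC38A1 the window furthest upstream held neither motif. In SLC7A5 (chr16:87869458-87869757, minus strand) and SLC43A1 (chr11:57515653-57515952, minus strand) CACGTG starts 130 and 112 bases before the start.
SLC1A5: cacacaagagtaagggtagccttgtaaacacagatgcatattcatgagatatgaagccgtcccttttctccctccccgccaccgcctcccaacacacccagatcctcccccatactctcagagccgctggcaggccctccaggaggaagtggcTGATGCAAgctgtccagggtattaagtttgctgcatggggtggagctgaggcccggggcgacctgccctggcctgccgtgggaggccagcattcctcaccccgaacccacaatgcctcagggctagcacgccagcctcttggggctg
SLC1A4: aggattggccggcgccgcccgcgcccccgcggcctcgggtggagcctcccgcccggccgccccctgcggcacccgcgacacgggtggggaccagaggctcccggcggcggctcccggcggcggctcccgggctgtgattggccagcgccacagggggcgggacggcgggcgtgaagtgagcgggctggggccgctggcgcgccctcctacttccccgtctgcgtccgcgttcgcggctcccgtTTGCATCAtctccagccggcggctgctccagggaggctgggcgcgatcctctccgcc
SLC7A1: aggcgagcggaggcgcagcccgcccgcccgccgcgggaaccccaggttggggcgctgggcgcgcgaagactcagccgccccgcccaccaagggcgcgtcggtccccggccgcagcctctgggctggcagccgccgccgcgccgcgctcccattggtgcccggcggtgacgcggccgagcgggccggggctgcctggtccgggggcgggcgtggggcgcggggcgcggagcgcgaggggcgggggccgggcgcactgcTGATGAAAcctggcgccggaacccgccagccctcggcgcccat
SLC38A1: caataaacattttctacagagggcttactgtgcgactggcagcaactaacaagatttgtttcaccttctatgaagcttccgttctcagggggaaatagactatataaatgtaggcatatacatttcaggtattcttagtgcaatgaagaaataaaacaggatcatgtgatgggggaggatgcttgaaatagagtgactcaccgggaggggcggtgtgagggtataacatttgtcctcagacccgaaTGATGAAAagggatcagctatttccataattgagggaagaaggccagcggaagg
SLC7A5: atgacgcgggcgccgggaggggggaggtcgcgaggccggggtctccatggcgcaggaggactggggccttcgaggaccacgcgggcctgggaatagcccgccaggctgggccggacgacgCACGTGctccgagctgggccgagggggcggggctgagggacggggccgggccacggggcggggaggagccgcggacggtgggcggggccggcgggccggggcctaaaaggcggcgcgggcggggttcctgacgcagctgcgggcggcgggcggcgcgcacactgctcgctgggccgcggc
SLC43A1: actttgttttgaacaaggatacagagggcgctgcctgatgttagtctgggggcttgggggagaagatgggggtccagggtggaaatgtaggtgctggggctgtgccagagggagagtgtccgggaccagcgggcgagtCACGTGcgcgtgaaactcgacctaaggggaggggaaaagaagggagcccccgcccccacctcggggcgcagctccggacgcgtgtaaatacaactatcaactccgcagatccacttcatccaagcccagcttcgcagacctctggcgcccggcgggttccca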

How the data were processed

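Gene expression was profiled by RNA sequencing of 6 LNCaP libraries, 3 per group, which the series calls biological replicates; separate cultures are not stated further, and p-values measure the spread between these libraries. Per the submitters' processing notes, the tools were STAR 2.5, featureCounts (Subread 1.6.5) and, for statistics, edgeR 3.20.8, and the build was hg38. Per the file headers, the authors deposited raw read counts per gene, log2 CPM, and log2 fold changes with p-values and false discovery rates. Annotation, strand setting and low-count filter: not given in the sources used here. The table's coordinates overlap the GENCODE 29 position for 15.9% of 12011 matched genes, so positions printed are those of GENCODE 29 and RefSeq (GRCh38), and the table's were not used.

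The deposited counts went into edgeR 4.0.16 (R 4.3.3): TMM factors, filterByExpr (at least 10 reads, 15 in total), a robust quasi-likelihood model of group alone (Benjamini-Hochberg adjustment over all 12768 genes, threshold 0.05). Standard errors come from dividing the unshrunken log2 fold change by the root of its F statistic. Alternatives were the replicate block, DESeq2 1.42.0, limma-voom (limma 3.58.1), other scalings and filters, and leaving out libraries. The fits were tested on simulated counts that held no replicate effect, so these cannot judge the use of the block. In them edgeR on group alone called 84% of the 2-fold and 60% of the 1.5-fold changes. Intervals and limits cover counting error only, and 3 counts are worth 0.19 to 0.38 CPM.

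Each library's deviations from its group mean were correlated with those of the library of the same number, at 0.37, 0.46 and 0.17 for 1, 2 and 3, above the 0.1 set for treating numbers as pairs. However, number 3 without knockdown correlated by 0.25 with knockdown number 1, and number 1 without knockdown by 0.20 with knockdown number 3, both above the 0.17 of the same-numbered pair 3. No pair of replicates agreed within sampling noise (chi-square per degree of freedom 1.73 to 20.4).

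Named are the 8 transporters, PRMT5, SLC3A2, other carriers that passed with or without the block, and each transporter's nearest profile. SLC7A5P2 and SLC7A6OS were added after their values were seen. The genes and lists were chosen with earlier results of these data known.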

Additional observations from a re-analysis of the deposited data

How the results depend on the processing

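Adding the replicate number as a block took the count of genes called lower from 146 to 651 and higher from 43 to 410, transporters lower from 0 to 5 of 8, and other carriers from 2 to 4 lower and from 0 to 1 higher. DESeq2 called 91 genes higher and 1 of the 8 transporters lower. Without replicate 2 of both groups and with the block, 1269 genes were lower and 1122 higher, 6 transporters lower and 1 higher, and 6 other carriers lower and 3 higher. Without replicate 2 of both groups and no block, a fit added after seeing the data, the counts were 1165, 976, 6, 1, 6 and 2 in the same order. Leaving out 1 library at a time gave 21 to 266 genes lower and 3 to 179 higher, 0 to 2 transporters lower, 1 to 4 other carriers lower and 0 to 1 higher. In those fits the log2 fold change of SLC38A2 ran from -0.064 to 0.18. The cause of these shifts was not tested. The other scalings, limma-voom and both filters called 0 transporters and 2 other carriers, all lower. Of the 2 filter settings, that without a low-count filter only repeats the edgeR fit on group alone. The low-count filter had kept all 12768 genes. SLC1A4 and SLC7A5 gave no value under the filter of 100 counts in 3 libraries. SLC7A11 passed in all 15 alternative fits, among them the repeat without a low-count filter. Few reads limit SLC7A5 most, whose lowest library held 9.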
